A study of Canis lupus familiaris with 222 samples.

Results

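Simple and complex carcinomas are the 2 most common malignant histologies among these canine mammary tumors (CMTs), and the transcriptomes of 63 simple and 36 complex carcinomas were compared here. These 99 tumors are the members of 158 tumor libraries and 222 libraries in all that carry either diagnosis in the clinical table of the study, and each came from a different dog. All dogs were females recruited through veterinary clinics, and the tissue was taken at surgery. The RNA was poly(A) RNA of bulk tumor tissue, so that fewer cells of a type and less RNA per cell cannot be told apart. Age was recorded for 58 dogs with simple carcinoma, from 2 to 19 years with a median of 13, and for all 36 with complex carcinoma, from 7 to 17 years with a median of 12. For 7 of the 99 tumors, all of grade 1, the sample labels give an adenoma of the same line instead, 4 simple and 3 complex.

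The mammary gland is built from an inner layer of luminal epithelial cells, which make milk, and an outer layer of myoepithelial cells, which contract and rest on the basement membrane. A simple carcinoma is made of a single epithelial cell type. In a complex carcinoma, malignant epithelium grows together with a proliferating myoepithelial part, a mixture that is common in dogs and rare in women. The comparison asks which transcripts separate these forms of malignant growth, and whether they do so apart from grade.

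The groups differed in more than cell makeup. Grades 1, 2 and 3 were given to 30, 13 and 20 simple carcinomas and to 27, 6 and 3 complex carcinomas. Lymphatic invasion was present in 14 of 63 simple and 0 of 36 complex carcinomas, and 14 simple and 2 complex carcinomas were negative for the estrogen receptor (ER). Of the dogs with simple carcinoma 33 were intact, 27 were neutered and 3 had no entry. Of those with complex carcinoma 28 were intact and 8 neutered. With neuter status as a covariate, 76 identifiers were called between the histologies, against 89 without it. That fit left out the 3 dogs with no entry, so the covariate and the smaller set of tumors cannot be told apart. Of the simple carcinomas, 43 were tubulopapillary, 18 solid and 1 anaplastic, and 1 had no type. Surgery took place in 2016, 2017 and 2018 for 14, 43 and 6 simple and for 7, 23 and 6 complex carcinomas.

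The levels were FPKM values (fragment counts scaled to transcript length and to the mapped fragments of the library) for 24580 Ensembl gene identifiers. No table used here pairs these identifiers with gene names, so the genes are given by identifier, their functions are not described, and neither the tissue nor the myoepithelial part could be checked against marker genes. FPKM values carry no counts, and the depth behind a single value is unknown. A difference between libraries has to be kept in view throughout. On average 12295 ± 666 identifiers reached an FPKM of 1 in simple carcinomas (SD, n = 63) and 12643 ± 268 in complex carcinomas (SD, n = 36), a difference of −348 (two-sided permutation test, p = 0.00028, adjusted over 2 library measures 0.00056). Of the simple carcinomas, 12 lay under the lowest complex carcinoma, and the lowest library had 9014. The share of FPKM in the 10 most abundant identifiers was 21.1% ± 5.32 (SD, n = 63) in simple and 19.9% ± 2.90 (SD, n = 36) in complex carcinomas (permutation p = 0.195, adjusted 0.195).

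Complex carcinomas had more of nearly every transcript that separated the histologies. Of 14532 identifiers whose mean reached 0.5 FPKM, 89 were called, that is 0.612%, at an adjusted p under 0.05 (limma with Benjamini-Hochberg adjustment) and a log2(FPKM + 1) difference of at least 1. Of these, 87 were lower in simple than in complex carcinomas (0.599% of those tested) and 2 were higher (0.0138%). Without the minimum difference, 683 identifiers were lower and 86 higher at the same adjusted p. The median over all identifiers tested was −0.07, simple minus complex, and 65.2% were below 0.

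**Figure D1:**
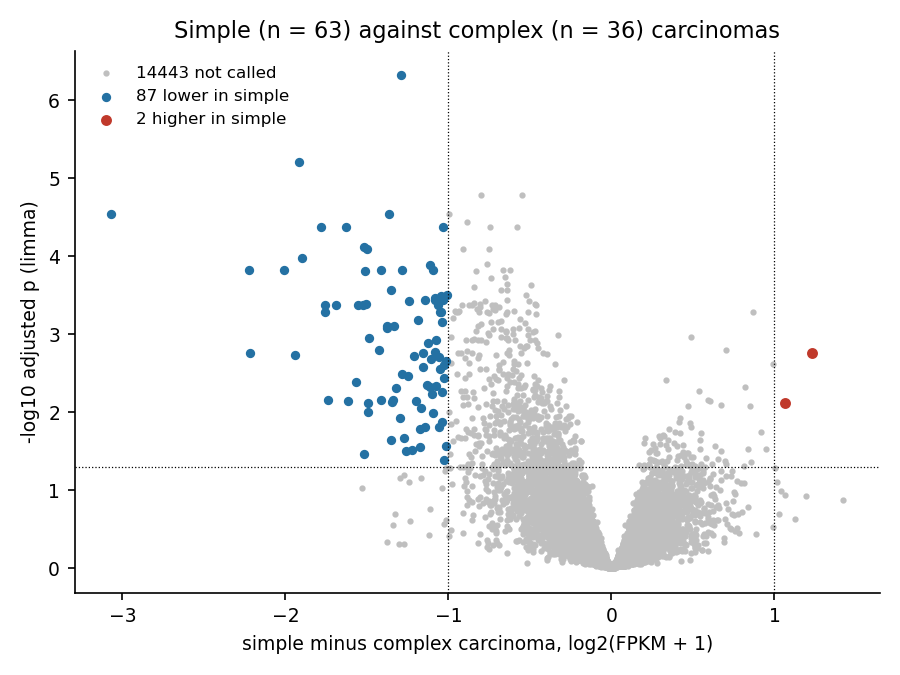
Each point is an identifier, placed by its difference between simple and complex carcinomas on the log2(FPKM + 1) scale (x axis) and −log10 of its adjusted p (y axis); dotted lines mark the limits of a call. The 87 called identifiers on the left, lower in simple carcinomas, face 2 on the right.

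The 87 identifiers were well expressed, but a minimum difference on the log2(FPKM + 1) scale by itself favors identifiers of higher level. Their median mean level was 13.6 FPKM in simple and 35.2 FPKM in complex carcinomas, and 86 of them had a mean of at least 5 FPKM in complex carcinomas. Their differences ran from −3.07 to −1.01 with a median of −1.25, and only 4 were at −2 or beyond. At the limit of a call, the last identifier inside stood at −1.01 and the first outside at −0.99. None of the 87 separated the histologies without overlap. For a typical member, 11 of 63 simple carcinomas exceeded the complex median, with a range of 2 to 21 over the members. Conversely, 30 of 36 complex carcinomas exceeded the simple median, with a range of 21 to 34. Histology took a median of 17.0% of the variance of these identifiers, from 9.20% to 35.9%, against 1.27% over all identifiers tested. These shares describe the contrast that chose the 87. Grade, which has more levels, took a median of 5.18% for the 87, up to 26.4%, and of 3.4% over all identifiers.

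The identifier with the largest difference was ENSCAFG00000014019. Its level ran from 0 to 532.4 FPKM in simple carcinomas with a median of 3.35, and from 0.19 to 1763 FPKM in complex carcinomas with a median of 89.8. Only 6 of 63 simple carcinomas exceeded the complex median, while 32 of 36 complex carcinomas exceeded the simple median, and the ranges overlapped. The means were 35.6 ± 86.6 FPKM (SD, n = 63) and 210.5 ± 319 FPKM (SD, n = 36), and the difference was −3.07 on the log2 scale (SE 0.50, limma adjusted p = 2.85e-05). In normal tissue its median was 1.36 FPKM beside simple and 1.77 FPKM beside complex carcinomas, at most 8.77 FPKM in any of these 41 libraries.

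The next identifier, ENSCAFG00000011534, had a similar distribution at lower levels. Its level ran from 0.0038 to 62.6 FPKM in simple carcinomas with a median of 2.69, and from 0.10 to 421.1 FPKM in complex carcinomas with a median of 22.5. A group of 10 complex carcinomas lay above the highest simple carcinoma. The difference was −2.23 on the log2 scale (SE 0.40, limma adjusted p = 0.000151). Its medians in normal tissue were 0.071 FPKM beside simple and 0.14 FPKM beside complex carcinomas, and the highest values were 31.0 and 0.58 FPKM.

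Only 2 identifiers were higher in simple carcinomas; they fall outside the rule for naming identifiers and are named after their values were seen. ENSCAFG00000014028 had a median of 2.17 FPKM in simple carcinomas, from 0.072 to 171.3, and of 0.75 FPKM in complex carcinomas, from 0.12 to 4.48. A total of 21 simple carcinomas exceeded every complex carcinoma, and the difference was 1.23 (SE 0.27, limma adjusted p = 0.00174). ENSCAFG00000020088 had a median of 9.91 FPKM in simple carcinomas, from 1.45 to 214.0, and of 4.53 FPKM in complex carcinomas, from 0.47 to 26.1. Its difference was 1.06 (SE 0.27, limma adjusted p = 0.00757), and 14 simple carcinomas exceeded every complex carcinoma. Simple carcinomas exceeded the complex median in 48 of 63 cases for the first and in 47 of 63 for the second. Conversely, 4 and 6 of 36 complex carcinomas exceeded the simple median, so the difference was not confined to an upper tail. Without the tumors with lymphatic invasion neither was called, at differences of 0.83 and 0.75.

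**Figure D2:**
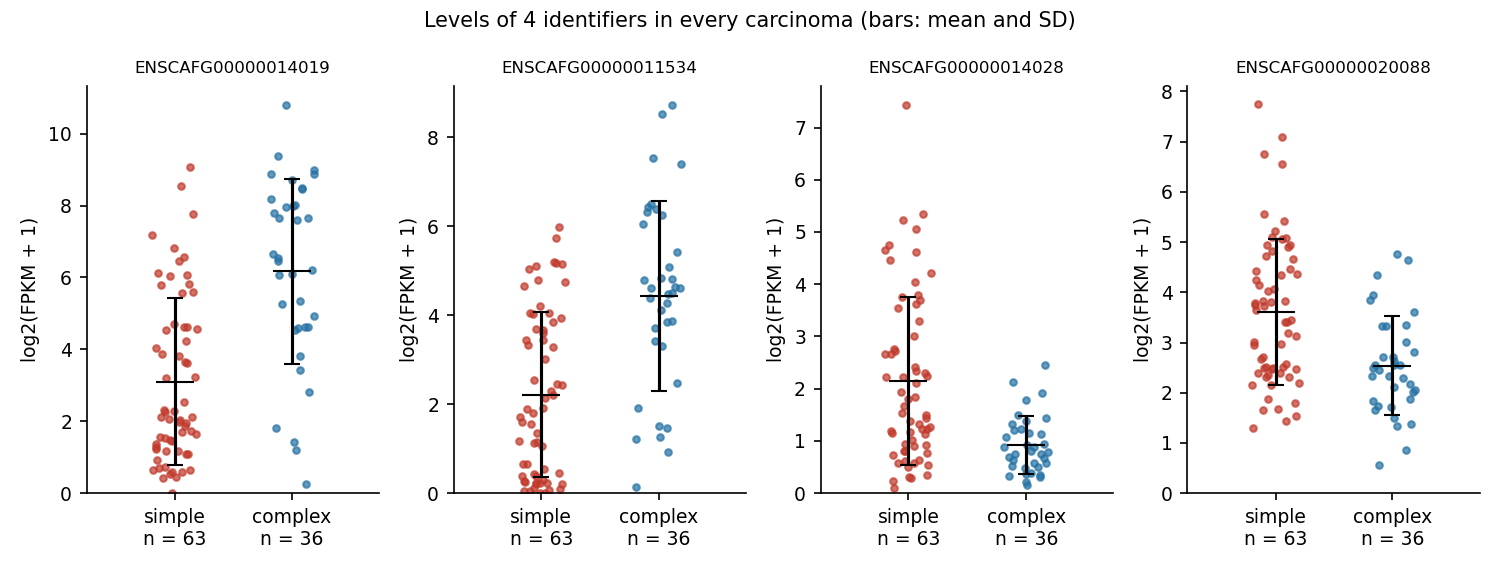
Each point is a carcinoma, with the level of 4 identifiers as log2(FPKM + 1) on the y axis and histology on the x axis; bars give mean and SD. ENSCAFG00000014019 and ENSCAFG00000011534 vary widely in simple carcinomas and are mostly high in complex carcinomas, which also hold the highest values. The other 2 show their highest values in a part of the simple carcinomas.

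The number of detected identifiers moved with these calls. With that number as a covariate, an alternative added after the data were seen, 35 identifiers were called, 33 lower and 2 higher in simple carcinomas, of which 32 were among the 87. All 87 remained below 0, with a median of −0.98 against 0.03 over all identifiers, and 53 kept an adjusted p under 0.05. The same tumors chose the 87, so that these signs are bound to lean that way. ENSCAFG00000014019 stood at −3.06 (limma adjusted p = 0.000364) and ENSCAFG00000011534 at −1.92 (limma adjusted p = 0.00527) in that fit. Leaving out only the library with the fewest detected identifiers gave 82 calls. Library quality and cell makeup can both move the number of detected identifiers, and they cannot be told apart here.

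Within surgery years, the median difference of the 87 was −1.15 in 2016, −1.31 in 2017 and −1.24 in 2018, with 87, 87 and 82 of them below 0. The medians over all identifiers were −0.03, −0.03 and −0.39 in these years, with 54.9%, 56.4% and 74.2% below 0. The tumors of these years are the ones that chose the 87, so that the signs are bound to lean that way. ENSCAFG00000014019 differed by −4.01, −3.06 and −1.37, and ENSCAFG00000011534 by −1.21, −2.87 and −0.68.

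The next question was whether the difference held at equal grade. With grade as a covariate, 62 identifiers were called (0.427%), 61 lower and 1 higher in simple carcinomas. Of the 87, 56 were called again and 31 were not, of which 20 kept an adjusted p under 0.05 with a smaller difference. A further 5 were called as lower only in this fit. The median difference of the 87 was −1.16, from −2.69 to −0.74, against −0.065 over all identifiers. The tumors of this fit also chose the 87, so the repeated calls and the median follow in part from that choice. With the number of detected identifiers added to grade, 18 were called.

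ENSCAFG00000014019 differed by −2.69 (limma adjusted p = 0.000593) and ENSCAFG00000011534 by −2.19 (limma adjusted p = 0.000776) with grade in the model. The 2 identifiers higher in simple carcinomas were not called: ENSCAFG00000014028 differed by 0.84 (limma adjusted p = 0.0396) and ENSCAFG00000020088 by 0.76 (limma adjusted p = 0.0932). The identifier that was called as higher was ENSCAFG00000012532, named here after its values were seen. It had 127 ± 77.2 FPKM in simple (SD, n = 63) and 75.4 ± 55.8 FPKM in complex carcinomas (SD, n = 36). Its difference was 1.06 with grade (limma adjusted p = 0.0238) and 0.95 without (limma adjusted p = 0.0293), just under the minimum. No identifier was called as higher with grade when the diagnoses came from the labels, or when mapping rate or the number of detected identifiers was added.

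Among grade 1 tumors alone, 30 simple and 27 complex, 55 of 14381 identifiers were called (0.382%), all of them lower in simple carcinomas, and 44 of these were among the 87. All 87 were below 0 with a median of −1.22. In grade 2 (13 against 6) and grade 3 (20 against 3), 85 and 82 of the 87 were below 0, with medians of −1.01 and −1.17, given without a test. The medians over all identifiers were −0.09, 0.01 and −0.06 in grades 1, 2 and 3. Of all identifiers tested in grade 1, 68.8% were below 0. ENSCAFG00000014019 differed by −2.78, −2.45 and −2.59 in grades 1, 2 and 3. ENSCAFG00000014028 differed by 0.60, 1.02 and 1.87, and ENSCAFG00000020088 by 0.62, 0.16 and 2.44. These 3 comparisons use tumors that also chose the 87. The number of identifiers at 1 FPKM was also lower among grade 1 simple carcinomas, at 12225 ± 836 (SD, n = 30) against 12649 ± 294 (SD, n = 27).

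Simple carcinomas varied among themselves by growth pattern. The tubulopapillary type, in which cells line tubules and papillae, was mostly of low grade, and solid tumors, which grow in sheets without lumina, were of grade 3 in 17 of 18 cases, so that pattern and grade cannot be told apart. Tubulopapillary against complex carcinomas gave 63 called of 14484 (0.435%), 61 lower and 2 higher in simple, and 54 of the 61 were among the 87. The median of the 87 in that comparison was −1.14, against −0.07 over all identifiers. These tumors are among those that chose the 87, so the overlap of the calls and the median follow in part from that choice.

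Solid against tubulopapillary carcinomas gave many more calls, 284 of 14480 (1.96%), with 107 higher and 177 lower in solid tumors. Of the 87, 7 were called there, all lower in solid tumors, and the median of the 87 was −0.31 against −0.01 over all identifiers. Solid tumors were among those that chose the 87. ENSCAFG00000003648 had a median of 18.4 FPKM in solid, 405.1 FPKM in tubulopapillary and 570.1 FPKM in complex carcinomas (solid minus tubulopapillary −3.69, SE 0.77, limma adjusted p = 0.001). ENSCAFG00000006430 had medians of 3.98, 183.4 and 143.3 FPKM in these groups (difference −3.65, SE 0.65, limma adjusted p = 0.000231), and 0 of 18 solid tumors exceeded the tubulopapillary median. ENSCAFG00000023449 and ENSCAFG00000007204 were higher in solid tumors, by 2.44 (limma adjusted p = 0.00564) and 2.27 (limma adjusted p = 0.0136). In the comparison of simple with complex carcinomas, none of these 4 was called.

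Both identifiers called as higher in simple carcinomas were also called as higher in solid than in tubulopapillary tumors. The solid tumors are among the simple carcinomas that chose these identifiers, so this overlap follows in part from that choice. The median of ENSCAFG00000014028 was 10.1 FPKM in solid, 1.34 FPKM in tubulopapillary and 0.75 FPKM in complex carcinomas, a solid minus tubulopapillary difference of 1.76 (SE 0.37, limma adjusted p = 0.00125). The medians of ENSCAFG00000020088 were 22.5, 7.08 and 4.53 FPKM (difference 1.29, SE 0.36, limma adjusted p = 0.0167). Tubulopapillary and complex carcinomas differed by 0.71 (limma adjusted p = 0.0526) for the first and by 0.73 (limma adjusted p = 0.125) for the second, and neither was called.

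The 87 identifiers rose and fell together from tumor to tumor. Their mean pairwise correlation across tumors was 0.431 within the 36 complex and 0.366 within the 63 simple carcinomas. Over all identifiers tested it was 0.040 and 0.092. The values share each tumor's library and cell makeup, and the 87 were chosen in these same tumors. No set of identifiers of similar level was compared. ENSCAFG00000014019 correlated with the other 86 at a median r of 0.494 within complex (from 0.125 to 0.765) and of 0.342 within simple carcinomas (from 0.011 to 0.701).

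Because of this, their level in a tumor was summarized as the mean z value, the distance from the mean of the 99 carcinomas in units of SD averaged over the 87 identifiers. The score first planned also subtracted the mean z value of the 2 identifiers higher in simple carcinomas, which then weigh as much as the other 87; the score over the 87 alone was added after the data were seen. It was −0.32 ± 0.56 (SD, n = 63) in simple and 0.55 ± 0.58 (SD, n = 36) in complex carcinomas, which is the contrast that chose the identifiers and is given with no test. The groups overlapped: 4 simple carcinomas exceeded the complex median, 6 complex carcinomas lay under 0 and 3 lay under the simple median. Conversely, 8 complex carcinomas exceeded every simple carcinoma and 18 simple carcinomas lay under every complex one. Tubulopapillary tumors averaged −0.25 ± 0.53 (SD, n = 43) and solid tumors −0.48 ± 0.59 (SD, n = 18). With the planned score these means were −0.24 ± 0.95 and −1.55 ± 1.22. Complex carcinomas of grade 1 averaged 0.60 ± 0.52 (SD, n = 27).

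**Figure D3:**
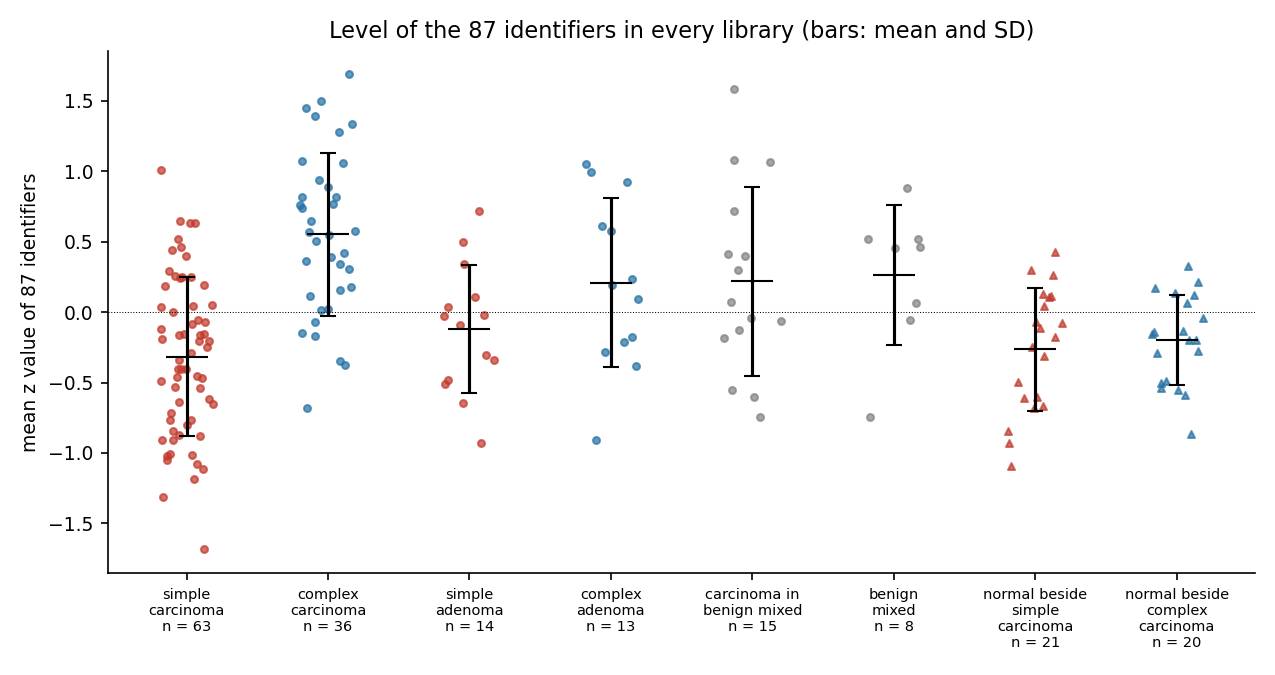
Each point is a library, with the mean z value of the 87 identifiers on the y axis and the diagnosis on the x axis; circles are tumors, triangles are normal tissue, and bars give mean and SD. Complex carcinomas average 0.55 and simple carcinomas −0.32, and complex adenomas (0.21), carcinomas in benign mixed tumors (0.22) and benign mixed tumors (0.26) lie between them, as do simple adenomas (−0.12) and normal tissue beside simple (−0.26) and complex carcinomas (−0.20).

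The adenomas hold the same contrast of cell makeup in benign tumors that did not choose the 87 identifiers. Between 14 simple and 13 complex adenomas, 0 of 14390 identifiers were called (0%) with limma, and 656 (4.56%) had an unadjusted p under 0.05. These groups are smaller than those of the carcinomas, so a difference of the same size is harder to call here. Of the 87, 76 were lower in simple adenomas, with a median of −0.56, while 48.7% of the other identifiers were lower, with a median of 0.01. The mean z value was −0.12 ± 0.46 (SD, n = 14) in simple and 0.21 ± 0.60 (SD, n = 13) in complex adenomas, and 8 of 13 complex adenomas exceeded the simple median. The planned score gave 0.31 ± 0.71 (SD, n = 14) and 0.68 ± 0.68 (SD, n = 13), with 10 of 13 complex adenomas above the simple median. Since the 87 vary together, the count of 76 does not hold 76 independent observations. The number of identifiers at 1 FPKM was 12562 ± 377 (SD, n = 14) in simple and 12542 ± 723 (SD, n = 13) in complex adenomas.

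ENSCAFG00000014019 had a median of 5.59 FPKM in simple adenomas, from 1.29 to 100.5, and of 29.3 FPKM in complex adenomas, from 1.27 to 735.1. The ranges overlapped, and the difference of −1.57 (SE 0.88) had a limma adjusted p of 0.865. ENSCAFG00000011534 had medians of 5.14 and 7.16 FPKM (difference −0.79, SE 0.61, limma adjusted p = 0.865). ENSCAFG00000014028 had medians of 0.85 and 0.91 FPKM, with no adenoma above 2.34.

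The difference between the contrast in carcinomas and that in adenomas was tested as an interaction. No identifier was called (0 of 14551, 0%) with limma, and 1207 (8.29%) had an unadjusted p under 0.05. For ENSCAFG00000014019 the carcinoma contrast exceeded the adenoma contrast by −1.50 (SE 1.04, limma adjusted p = 0.619), and for ENSCAFG00000011534 by −1.43 (SE 0.82, limma adjusted p = 0.593). Over the 87, the median was −0.78, with 86 below 0. Identifiers chosen for a large carcinoma contrast are bound to lean that way.

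**Figure D4:**
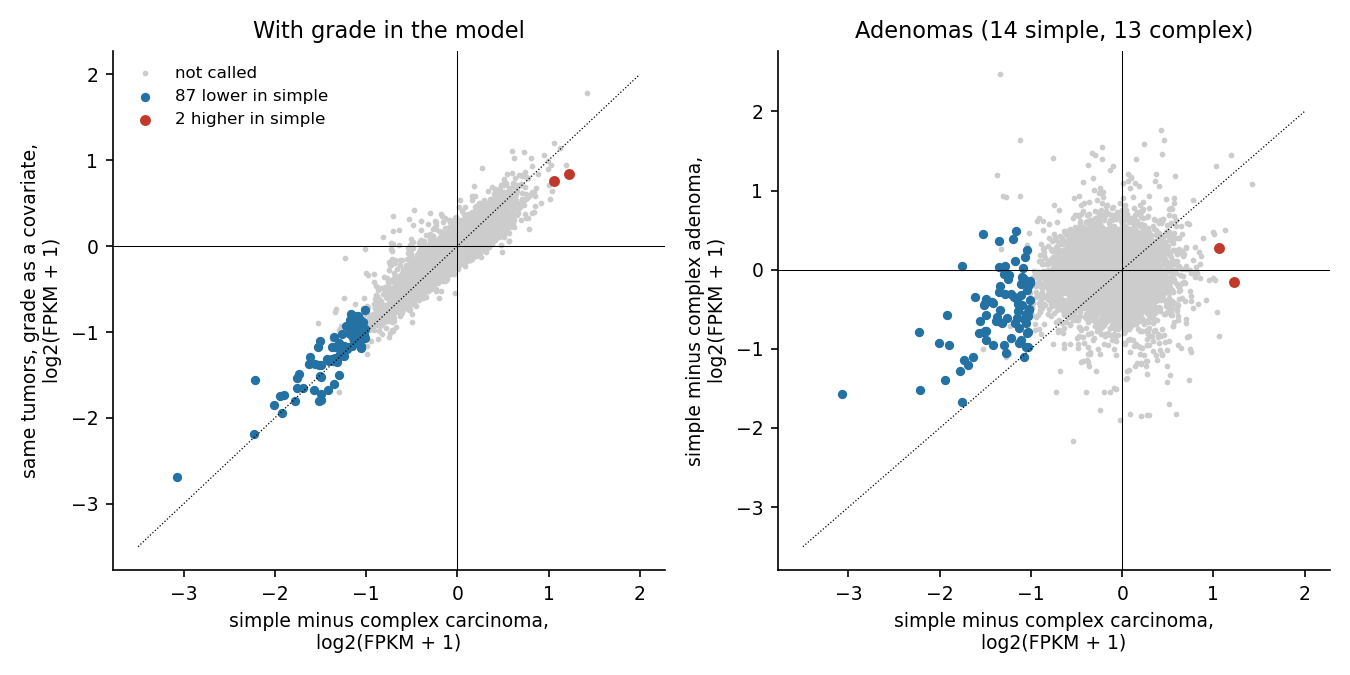
Each point is an identifier; the x axis gives simple minus complex carcinoma on the log2(FPKM + 1) scale, and the y axis gives the same with grade as a covariate (left) or simple minus complex adenoma (right). The 87 identifiers stay near the dotted line of equal values on the left (median −1.16) and lie closer to 0 on the right (median −0.56).

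Mixed tumors, in which cartilage or bone occurs beside epithelium and myoepithelium, were set beside them as a description. For 84 of the 87 identifiers the mean log2 level in the 15 carcinomas in benign mixed tumors lay above that of simple carcinomas, and for 77 it lay between simple and complex carcinomas. In the 8 benign mixed tumors these counts were 86 and 74. They were 86 and 80 in complex adenomas and 70 and 69 in simple adenomas. In normal tissue they were 45 and 39 beside simple and 48 and 34 beside complex carcinomas. The 87 were chosen for lower levels in simple than in complex carcinomas, which by itself favors such counts. ENSCAFG00000014019 had a median of 77.9 FPKM in carcinomas in benign mixed tumors and of 68.3 FPKM in benign mixed tumors, near the 89.8 FPKM of complex carcinomas.

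Normal mammary tissue taken next to the tumor was sequenced for 21 dogs with simple and 20 with complex carcinoma. This background held no called difference (0 of 14613 identifiers, 0%) with limma, and 1491 (10.2%) had an unadjusted p under 0.05. Of the 87, 85 passed the filter on mean FPKM there, and 57 of them were lower beside simple carcinomas, with a median of −0.13. All identifiers leaned the other way, with a median of 0.10 and 29.6% of the others below 0. ENSCAFG00000014019 differed by −0.28 (limma adjusted p = 0.583) and ENSCAFG00000011534 by 0.34 (limma adjusted p = 0.643).

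When each tumor was compared with its own normal tissue, the 2 histologies differed in 4 of 14710 identifiers (0.0272%), all lower in simple carcinomas. These were ENSCAFG00000011534 (−3.01, SE 0.63), ENSCAFG00000017965 (−2.53, SE 0.50), ENSCAFG00000014457 (−2.23, SE 0.42) and ENSCAFG00000010250 (−1.29, SE 0.27), of which the first was named by the rule and the others after their values were seen. All 4 had a limma adjusted p of 0.0497, at the edge of the threshold, and the first 3 were among the 87. With a pseudocount of 0.1 in place of 1, or without the filter on low values, none was called. ENSCAFG00000014019 differed by −3.12 (SE 0.77, limma adjusted p = 0.0824).

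All 87 were below 0 in this comparison of 41 dogs, with a median of −1.24 against −0.16 over all identifiers. The tumors are among those that chose the 87. Over the 20 dogs with complex carcinoma, the mean tumor level exceeded the normal level for 76 of the 87, with a median of 1.31 against 0.18 over all identifiers, 68.6% of which were higher in the tumor. Over the 21 dogs with simple carcinoma it did so for 46 of the 87, with a median of 0.06 against 0.01 over all identifiers, 51.6% of which were higher in the tumor. ENSCAFG00000014019 was higher in the tumor than in the dog's own normal tissue in 19 of 20 dogs with complex carcinoma, by 5.05 ± 2.53 on the log2 scale (SD, n = 20). In dogs with simple carcinoma it was higher in 16 of 21, by 1.92 ± 2.60 (SD, n = 21). ENSCAFG00000011534 was higher in 20 of 20 and in 18 of 21 dogs. ENSCAFG00000014028 was higher in the tumor in 4 of 20 dogs with complex and 13 of 21 with simple carcinoma.

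**Figure D5:**
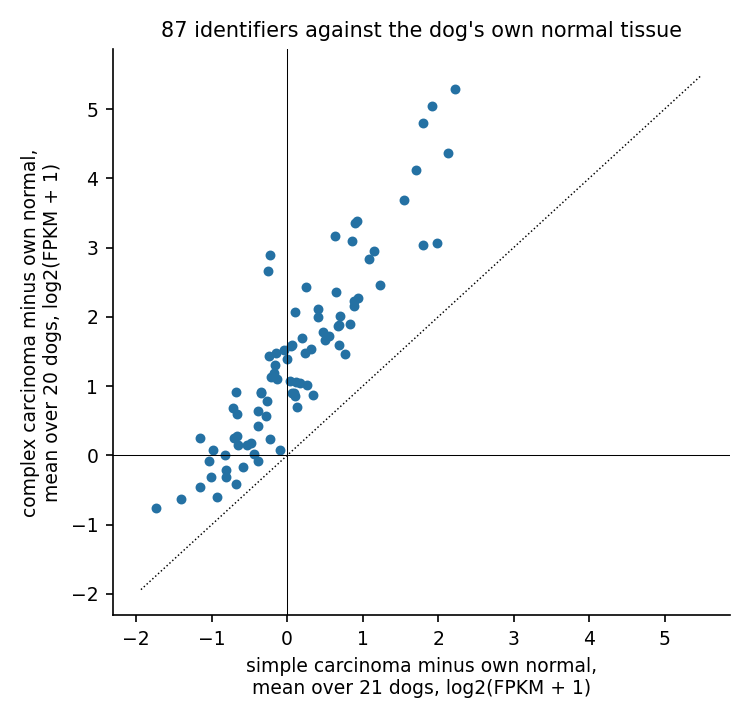
Each point is one of the 87 identifiers; the axes give the mean difference of tumor and own normal tissue on the log2(FPKM + 1) scale in 21 dogs with simple (x axis) and 20 dogs with complex carcinoma (y axis). All 87 lie above the dotted line of equal values, with medians of 0.06 and 1.31.

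Over the whole transcriptome the histologies overlapped widely. Among the first 5 principal components of the 99 tumors, found without the diagnosis, the largest separation was on the fourth, which holds 6.25% of the variance. Simple and complex carcinomas differed there by 0.88 SD (permutation test, p = 2e-05, the smallest the permutations can give, adjusted over 5 components 0.0001). On the second, with 8.94% of the variance, they differed by 0.52 SD (adjusted permutation p = 0.0287), and on the first, with 18.1%, by 0.42 SD (adjusted permutation p = 0.062). The remaining ones, the third and the fifth, differed by 0.15 and 0.10 SD (adjusted permutation p = 0.6 and 0.635). The median correlation between a pair of tumors was 0.858 within simple, 0.896 within complex and 0.870 between them, and the highest among the 99 was 0.958, so that no pair of libraries held the same values.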

How the data were processed

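The deposited values were FPKM. The authors mapped reads to CanFam3.1 with TopHat 2.0.9, using Ensembl genes and the fr-firststrand setting, and ran Cufflinks 2.1.1; FastQC 0.10.1 and Bowtie2 are named in the submitters' processing notes. Per-library values were not pooled, and depth per value is unknown. Histology, type, grade, invasion and ER status came from the clinical table of the study, mapping rates from its sequencing table, and tissue, dog and surgery year from the labels.

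FPKM + 1 was log2-transformed and fitted with limma 3.58.1 in R 4.3.3 with an intensity trend, two-sided, after leaving out identifiers whose mean over the compared libraries was under 0.5 FPKM, with Benjamini-Hochberg adjustment. The comparison with own normal tissue had the dog as a factor. Permutation tests used 100000 resamples (scipy 1.17.1). On simulated data for simple against complex carcinomas (14532 genes), 92 of 100 genes changed by 1.25 on the log2 scale and 100 of 100 changed by 2 were recovered, with 1 false call; genes varied independently there.

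Identifiers were named as the first 2 in each direction by size among those called with and without grade, with a mean of at least 5 FPKM in the higher group; in solid against tubulopapillary tumors, among those called there. For the higher direction none qualified. None of the 43286 genes of the RefSeq table carries an Ensembl identifier, so the gene and marker lists could not be used. A total of 33 of 24580 identifiers share their values with another identifier, none of them among the 89. The comparison and its settings were chosen with earlier results of these data known. Alternatives covered the pseudocount, filters, scaling, label diagnoses, covariates and excluded libraries.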

Additional observations from a re-analysis of the deposited data

Results flagged for a closer look

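In the benign mixed tumors, 1 of 8 libraries stood apart for ENSCAFG00000014019, at 1.60 on the log2(FPKM + 1) scale with the nearest other at 5.35. For ENSCAFG00000012532, 1 of 8 lay at 0.24 with the nearest other at 5.34. These were 2 of 12 checks for a lone low or high value in groups of 4 to 10 samples, and chance alone gives about 1 in 20. Both fell in the same 8 libraries, so they are not independent.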

How the results depend on the processing

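The direction of all 5 named carcinoma differences was kept under 15 alternatives each. With a pseudocount of 0.1, 253 identifiers were called between simple and complex carcinomas (8 higher and 245 lower in simple), 206 with grade and 134 within grade 1. With the number of identifiers at 1 FPKM as a covariate, 35 were called, and 18 with grade. For tumors against own normal tissue, a pseudocount of 0.1 and no filter each gave 0 calls; the cause was not tested. The other alternatives gave 71 to 95 calls without grade and 51 to 68 with it; diagnoses from the labels gave 79 and 53. ENSCAFG00000020088 fell just short of the minimum with the detected number as a covariate (0.97), and ENSCAFG00000012532 passed it with upper quartile scaling (1.01). The limma adjusted p of ENSCAFG00000012532 without grade ran from 0.0205 to 0.0972 over the alternatives, above the threshold with mapping rate (0.0584), neuter status (0.08) or the detected number (0.0948) as a covariate and without tumors with lymphatic invasion (0.0972). No paired analysis was possible between the histologies because each tumor came from a different dog. Without counts, the precision of low values could not be judged.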
